A study of Drosophila melanogaster with 2 samples.

Results

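The proteasome subunit genes of Drosophila melanogaster were taken as the protein-coding genes whose symbol begins with Prosalpha, Prosbeta, Rpn or Rpt followed by a digit, and 48 of the 13945 protein-coding genes of the annotation met this rule. Of these, 32 encode the constitutive subunits, 14 of the core particle and 18 of the regulatory particle. The other 16 are paralogues whose symbol goes on with T or R after its number, 11 of core and 5 of regulatory subunits. Binding was measured by ChIP-seq, the immunoprecipitation of sheared chromatin followed by sequencing, in whole embryos of mixed sex aged 0 to 24 h. They came from a stable transgenic line that carries the transcription factor gene trachealess (trh) fused at its C-terminal end to GFP, and GFP was the target of the antibody. Both libraries, biological replicates 1 and 3, belong to 1 group and were called against 1 shared control, and there was no other genotype or treatment. Chromatin of all cells of the embryo was pooled, so a peak in a few cells and a weak peak in many cannot be told apart, and the lists used here do not separate the transgene from the resident trh gene. The lists hold called peaks and no reads, so read depth is unknown, and all intervals are exact (Clopper-Pearson) 95% binomial intervals that cover counting error only.

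The proteasome degrades proteins that carry ubiquitin chains. Its core particle is a barrel of stacked rings, in which the alpha subunits form the gate and the subunits Prosbeta1, Prosbeta2 and Prosbeta5 carry the proteolytic sites. The regulatory particle caps the barrel: the ATPases Rpt1 to Rpt6 and the large subunits Rpn1 and Rpn2 form its base with the ubiquitin receptors Rpn10 and Rpn13, and the other Rpn subunits form the lid, where Rpn11 removes ubiquitin chains. In the fly, several subunits have copies that are expressed in the testis and build a male germline proteasome. Trh is a bHLH-PAS factor that binds DNA with its partner Tango at sequences with the core ACGTG and is known for its role in the tracheae and salivary ducts.

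The sequences under the peaks that carry the results are shown first, read from the RefSeq Release 6 genome (dm6) in the direction of transcription of the proteasome gene. Capitals mark the letters of any sequence that was searched for. The first 4 are the stretches of 50 bp on each side of the summits of the strongest peak near a proteasome gene, downstream of Rpn5 (chr3R:5791708-5791808, plus strand), of the peak downstream of Rpt6 (chrX:21319469-21319569, plus strand), and of the peaks upstream of Rpn5 (chr3R:5789255-5789355, plus strand) and Rpn11 (chr2L:5059888-5059988, minus strand). None of the 4 holds ACGTG.
Rpn5 downstream: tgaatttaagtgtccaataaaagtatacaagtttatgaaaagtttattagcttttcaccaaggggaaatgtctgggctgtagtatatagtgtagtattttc
Rpt6 downstream: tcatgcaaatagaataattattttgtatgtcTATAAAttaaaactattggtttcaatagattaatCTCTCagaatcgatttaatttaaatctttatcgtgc
Rpn5 upstream: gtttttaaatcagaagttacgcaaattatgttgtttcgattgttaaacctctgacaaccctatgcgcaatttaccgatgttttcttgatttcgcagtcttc
Rpn11 upstream: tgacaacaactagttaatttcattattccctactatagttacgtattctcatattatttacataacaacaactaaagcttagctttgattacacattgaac

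The next 9 are stretches of 30 bp around TATCGATA, known as the DNA replication-related element core, which many housekeeping promoters of the fly hold. They show where it sits at the proteasome genes, and Rpn3 holds it on both sides of its transcription start site (TSS). The Rpn3 summit copy lies at chr2L:19051855-19051884, and the promoter copies at chr2L:19051582-19051611 (Rpn3), chr3R:23752819-23752848 (Rpt5), chr3R:22462033-22462062 (Rpn7, minus strand), chr3R:23733418-23733447 (Rpn9, minus strand), chr3L:16582801-16582830 (Rpn12), chr2L:10221324-10221353 (Prosalpha6), chr3L:14999930-14999959 (Prosbeta2) and chr3L:16610444-16610473 (Prosbeta6, minus strand).
Rpn3 summit: accgtaaaacgTATCGATAaattgaaacgt
Rpn3 promoter: tgttatcggagTATCGATAtcgaaaaggct
Rpt5 promoter: atcgctgtcacTATCGATAagcgccggcga
Rpn7 promoter: gcggtataattTATCGATAattttggggtc
Rpn9 promoter: gcccggttaaaTATCGATAttctcgcggat
Rpn12 promoter: ttgttaaaataTATCGATAttaaagcacaa
Prosalpha6 promoter: cccgaatccctTATCGATAcccgatacaca
Prosbeta2 promoter: ccatgaatataTATCGATAcaatatcgatt
Prosbeta6 promoter: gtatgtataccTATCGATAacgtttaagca
The last pair is the 150 bp upstream of the TSS of a constitutive gene, Rpt6 (chrX:21315902-21316051, plus strand), and of its paralogue Rpt6R (chr3R:30583698-30583847, minus strand), shown because a weak peak had its summit at the TSS of the constitutive gene and none lay within 500 bp of that of the paralogue. The letters ACGTG stand in the paralogue's stretch, 129 bp before its TSS, and in none of the constitutive gene's.
Rpt6 150 bp: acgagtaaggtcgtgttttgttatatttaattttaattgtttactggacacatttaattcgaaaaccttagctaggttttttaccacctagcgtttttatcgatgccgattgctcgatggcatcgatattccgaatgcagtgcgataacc
Rpt6R 150 bp: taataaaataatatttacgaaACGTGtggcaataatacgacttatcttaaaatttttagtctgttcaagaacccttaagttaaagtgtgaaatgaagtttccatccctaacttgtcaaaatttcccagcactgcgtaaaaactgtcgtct

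Proteasome genes held peaks about as often as other genes. On dm6, 2322 peaks passed the authors' threshold on the irreproducible discovery rate (IDR), which rests on how well peak ranks repeat between replicates. A gene was counted where such a summit fell between 2000 bp before its start and 2000 bp past its end. By this rule 10 of the 48 genes had a peak (20.8%, interval 10.5 to 35), against 22.4% of all protein-coding genes. Proteasome genes are short, from 881 to 4500 bp, and of the 10135 protein-coding genes no longer than 4500 bp 18.1% had a peak. All 10 were among the 32 constitutive genes (31.2%, interval 16.1 to 50), 4 of the 14 core genes (28.6%, interval 8.39 to 58.1) and 6 of the 18 regulatory genes (33.3%, interval 13.3 to 59.0). None of the 16 T or R paralogues had one, which allows a share of up to 20.6%. The intervals of the core and the regulatory particle hold both background shares, and that of the paralogues lies below 22.4% and holds 18.1%. With 1 group there is no test over samples, and differences between the lists were not tested.

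**Figure D1:**
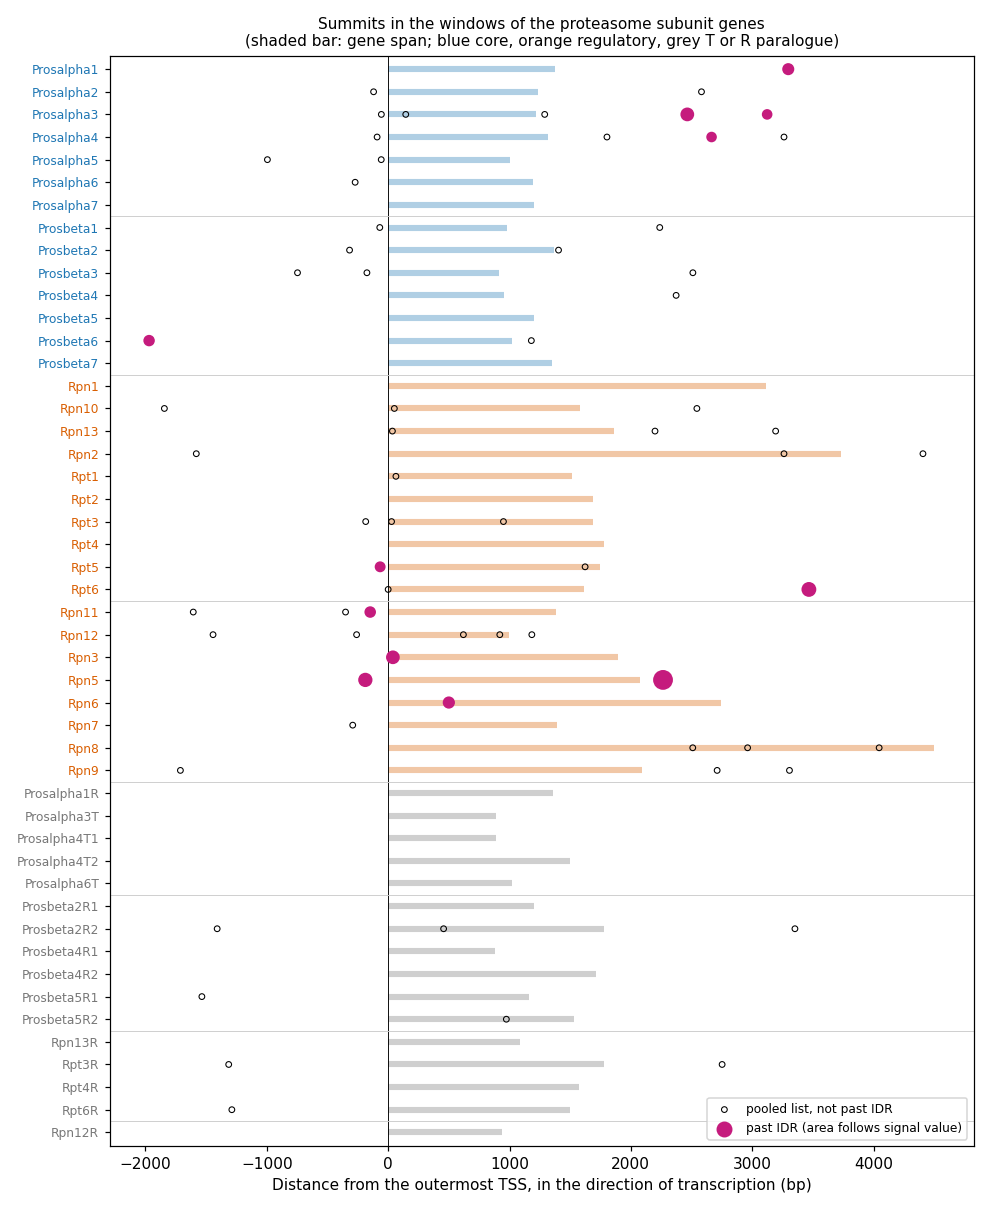
Summits around the 48 proteasome genes, 1 gene per row, by distance in bp from the outermost TSS in the direction of transcription (horizontal axis). Bars are gene spans (blue core, orange regulatory, grey T or R paralogue), filled circles are peaks past IDR with an area that follows the authors' signal value, and open circles are other peaks of the pooled list. Of the 12 filled circles 7 lie in regulatory rows, 5 in core rows and none in paralogue rows.

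The 10 genes held 12 peaks, 2 each at Prosalpha3 and Rpn5 and 1 each at the other 8. The signal value that the authors' caller gave ran from 77.8 to 318.1 at these peaks, with a median of 106.9, against a median of 110.1 over all 2322. Their ranks by signal ran from 98 to 2150, with a median of 1227.5, against 1161 over the list. The peaks near proteasome genes were thus of ordinary strength for the list. Every one was 400 bp wide, as was every weaker peak of the pooled list near these genes, so the width does not set them apart.

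All peaks at most 500 bp from an own TSS were at regulatory genes. There were 5 of them (5 of 48 genes, 10.4%, interval 3.47 to 22.7), against 10.2% of the genes no longer than 4500 bp and 11.8% of all protein-coding genes. Of the 18 regulatory genes 5 had one (27.8%, interval 9.69 to 53.5). These were 4 of the 8 lid genes, Rpn3, Rpn5, Rpn6 and Rpn11 (50%, interval 15.7 to 84.3), and 1 of the 10 base genes, Rpt5 (10%, interval 0.253 to 44.5). The 14 core genes had none, which allows a share of up to 23.2%. The promoter of 1 of them, Prosalpha1, lies in a repeat where a lack of peaks is no measurement, and 0 of the other 13 allows up to 24.7%. The intervals of the core and the regulatory particle overlap, and each holds both background shares. The interval of the lid lies above the share of all protein-coding genes, but the lid was singled out after its values were seen, and no test was made.

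Among the lid genes, Rpn5, a scaffold subunit, had the strongest peaks. The summit at 5789305 on 3R, 188 bp upstream of its TSS, had a signal of 154.6 and rank 549, with 96.6 in replicate 1 (rank 549 of 28743) and 70.6 in replicate 3 (rank 421 of 30000). It was closer to the TSS of Hat1, a histone acetyltransferase gene that is transcribed the other way from a start 109 bp away, and stood in an intron of that gene, 79 bp from its TSS. The summit at 5791758, 189 bp past the end of Rpn5, had a signal of 318.1 and rank 98, the highest of any proteasome gene. Its signals were 204 in replicate 1 (rank 81) and 114 in replicate 3 (rank 127). The nearest TSS was that of Hpf1, 121 bp away, which encodes a cofactor of poly(ADP-ribose) polymerase. Both Rpn5 peaks were thus strong in each replicate, and both lay nearer to the start of another gene.

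Rpn3, another scaffold subunit of the lid, had its summit 39 bp inside its own first exon, in the 5' UTR (2L, 19051829, signal 140.6, rank 690). Replicate 1 gave 86.5 there (rank 669) and replicate 3 gave 50.7 (rank 837). TATCGATA stood 37 bp from the summit, in the stretch printed for the Rpn3 summit. Rpn11, the deubiquitinase, had a summit 148 bp upstream of its TSS (2L, 5059938, signal 95.2, rank 1509), with 67.7 in replicate 1 (rank 1154) and 31.9 in replicate 3 (rank 2035). These were the only peaks of the 12 whose nearest protein-coding TSS was that of a proteasome gene. Rpn6, a lid subunit that in yeast clamps the core particle, had a summit in its intron 139 bp upstream of an internal TSS (2R, 14752410, signal 108.3, rank 1201), with 61 in replicate 1 (rank 1413) and 41.9 in replicate 3 (rank 1244). The start of ave, a gene of Ras signalling, was slightly closer, at 111 bp.

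The base gene Rpt5, an ATPase whose tail docks into the core particle in yeast, shares its promoter with RanBP3, whose TSS lies 42 bp away on the other strand. The summit was 66 bp upstream of the Rpt5 TSS and 24 bp inside RanBP3 (3R, 23752810), with a signal of 83.7 and rank 1903. Replicate 1 gave 57.2 (rank 1603), whereas replicate 3 gave 27.0 (rank 2888), below the first 2322 of its list. TATCGATA stood 20 bp from the summit. The other base gene with a peak, the ATPase gene Rpt6, had it 1856 bp past its end, 223 bp from the TSS of anox (X, 21319519, signal 168.5, rank 459). Its signals were 103 in replicate 1 (rank 471) and 63.1 in replicate 3 (rank 546), so this distant peak was stronger in each replicate than that at the Rpt5 promoter.

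The core genes with a peak had it far from their own start. Prosalpha3, a subunit of the gate ring, held 2 peaks past its end, in an intron of CG10543. The stronger (2R, 20997365) had a signal of 142.5 and rank 666, with 98.3 in replicate 1 (rank 527) and 43.5 in replicate 3 (rank 1151), and the weaker (20998023) had 78.4 and rank 2123, with 63.7 in replicate 1 (rank 1296) and no summit within 100 bp in replicate 3. For the other alpha subunits, Prosalpha1 had a summit 1922 bp past its end, in the 5' UTR of the photolyase gene phr (2R, 7825381, signal 105.6, rank 1254), and Prosalpha4 had one 1348 bp past its end, in the 5' UTR of the ethanolamine kinase gene eas (X, 16278935, signal 77.8, rank 2150). The Prosalpha1 peak had 81.2 in replicate 1 (rank 780) and 23.4 in replicate 3 (rank 4194), and the Prosalpha4 peak had 38.7 in replicate 1 (rank 3281) and 43.1 in replicate 3 (rank 1175). Each of these was thus within the first 2322 peaks of 1 replicate alone. The only beta subunit with a peak was Prosbeta6, 1970 bp upstream of its TSS and 98 bp from that of CG4101 (3L, 16612388, signal 93.5, rank 1556), with 65.6 in replicate 1 (rank 1227) and 25.8 in replicate 3 (rank 3237). The catalytic subunit genes Prosbeta1, Prosbeta2 and Prosbeta5 had none.

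Over the 12 peaks, 10 were nearest to the TSS of a gene outside the proteasome, and 10 lay within 500 bp of the nearest protein-coding TSS. The latter share over all peaks past IDR is not given here, so the count cannot be read as particular to the proteasome genes. Of the 10 nearer to another gene, 3 also lay within 500 bp of the proteasome gene's own TSS, those upstream of Rpn5 and at Rpn6 and Rpt5. With each peak given only to the gene of its nearest protein-coding TSS, 2 of the 48 genes had a peak (4.17%, interval 0.509 to 14.3), against 8.86% of the genes no longer than 4500 bp and 12.9% of all protein-coding genes. The interval holds both shares. The members nearest to the edge of the window were Prosbeta6 at 1970 bp, Prosalpha1 at 1922 bp, Prosalpha3 at 1905 bp (its weaker peak) and Rpt6 at 1856 bp on the inner side. These distances are from the gene span, whereas for genes without a peak only the distance from the TSS to the nearest summit was taken. It does not give the distance to the edge of the window. The smallest was 2917 bp, at the ATPase gene Rpt2, and the largest 188299 bp, at Rpt3.

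The replicates taken alone had Rpn3, Rpn5, Rpn6, Rpn11, Rpt6 and Prosalpha3 in common and differed at other genes. Prosalpha3 was the only core gene found in both. The list past IDR was made from both replicates, so the overlap of each with it is not an independent measure of agreement. Among the 2322 strongest peaks of replicate 1 alone, 10 of the 48 genes had a peak, against 22.7% of all protein-coding genes, and 9 of these 10 were also in the list past IDR, with Prosalpha2 in place of Prosalpha4. Among those of replicate 3 alone, 7 genes had a peak, against 21.5% of all protein-coding genes. All 7 were in the list past IDR, and Prosalpha1, Prosbeta6 and Rpt5 were missing. Of the 12 peaks, 11 were among the first 2322 of replicate 1, 8 among those of replicate 3 and 7 in both. The shares over all peaks past IDR were 85.6% in replicate 1, 79.7% in replicate 3 and 68.1% in both. At the proteasome promoters, the 5 genes were the same in replicate 1, and Rpt5 was missing in replicate 3.

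**Figure D2:**
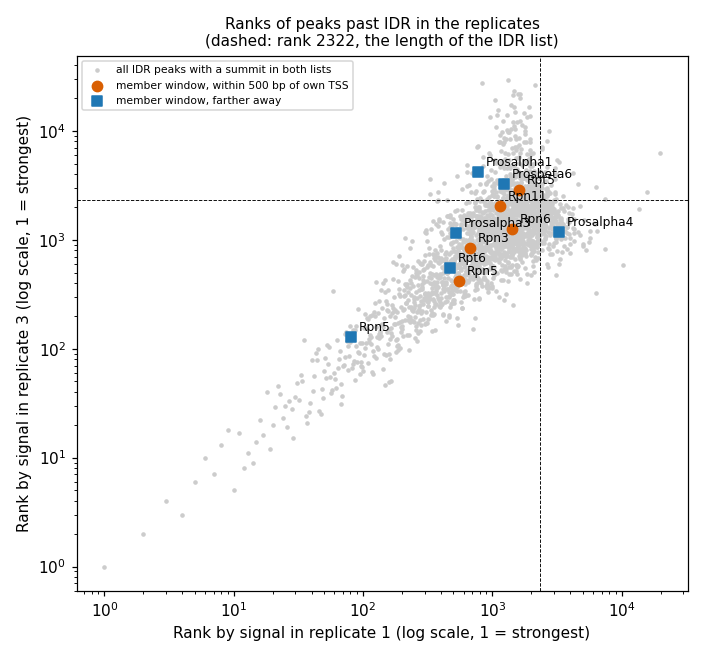
Rank by signal of each peak past IDR in replicate 1 (horizontal) and in replicate 3 (vertical), both on log scales, with rank 1 the strongest and dashed lines at rank 2322. Orange circles are peaks within 500 bp of a proteasome TSS, blue squares other peaks near proteasome genes and grey points all peaks past IDR found in both replicates. The strongest is the peak downstream of Rpn5, at ranks 81 and 127, and the peaks of Prosalpha1, Prosbeta6 and Rpt5 lie above the horizontal line.

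The pooled list of 21025 relaxed peaks and background, from which the peaks past IDR were drawn, set the constitutive genes and the paralogues further apart. By the same window, 31 of the 48 genes had a pooled peak (64.6%, interval 49.5 to 77.8). The shares were 66.5% of the genes no longer than 4500 bp and 73.3% of all protein-coding genes, and the interval holds both. At most 500 bp from an own TSS, 22 of 48 had one (45.8%, interval 31.4 to 60.8), against 35.3% of the genes no longer than 4500 bp and 41.0% of all protein-coding genes. Of these 22, 21 were among the 32 constitutive genes (65.6%, interval 46.8 to 81.4) and 1 among the 16 paralogues (6.25%, interval 0.158 to 30.2). The interval of the constitutive genes lies above both background shares and that of the paralogues below both, in a list that holds background by its label. The core had 8 of 14 (57.1%, interval 28.9 to 82.3) and the regulatory particle 13 of 18 (72.2%, interval 46.5 to 90.3), and these intervals overlap. Within the regulatory particle, the base had 6 of 10 (60.0%, interval 26.2 to 87.8) and the lid 7 of 8 (87.5%, interval 47.3 to 99.7).

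These promoter peaks ranked higher at the lid than at the core. The median rank in the pooled list of the strongest one per gene was 1509 for the 7 lid genes, 4195 for the 6 base genes and 10076 for the 8 core genes, against 5032 for all protein-coding genes with one. For all 13 regulatory genes with one, the median rank was 3510, with ranks from 549 to 16416. The lid genes spanned ranks 549 to 9451 and the core genes 4420 to 20100, so the ranges overlap. The lid was singled out after its values were seen, and the difference was not tested. The strongest at a core gene was that of Prosalpha3, 56 bp upstream of its TSS, at rank 4420 (signal 51.4). Its −log10 q value was 1.04, whereas every peak past IDR had at least 2.80. The catalytic gene Prosbeta1 had a summit 69 bp upstream of its TSS with a signal of 35 (rank 10447), and the catalytic gene Prosbeta2 one 318 bp upstream with 27.1 (rank 20100), each with no matching summit in replicate 3. Prosbeta5 had no pooled peak in its window.

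Close to the threshold, the weakest peak past IDR at a proteasome gene was that of Prosalpha4, with a signal of 77.8, and the lowest in the whole list was 74.4. Just outside were a peak 1606 bp upstream of Rpn11 (71.1, rank 2496) and a further one past the end of Prosalpha4 (70.2, rank 2556). Both genes had a peak past IDR in any case, so these did not bear on the count of genes.

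The genes without a peak past IDR were Prosalpha2, Prosalpha5, Prosalpha6, Prosalpha7 and Prosbeta1, Prosbeta2, Prosbeta3, Prosbeta4, Prosbeta5 and Prosbeta7 in the core, Rpn1, Rpn2, Rpn10, Rpn13, Rpt1, Rpt2, Rpt3 and Rpt4 in the base, and Rpn7, Rpn8, Rpn9 and Rpn12 in the lid. The strongest pooled peak among them belonged to Rpn10, a ubiquitin receptor, 15 bp from a TSS inside the gene (signal 61.5, rank 3219, −log10 q 1.80). It had 33.7 in replicate 1 (rank 4266) and 25.0 in replicate 3 (rank 3515). Next came Prosalpha2, whose peak lay 1347 bp past its end (59.0, rank 3467), with 47.7 in replicate 1 (rank 2258) and no match in replicate 3. Rpn13, the other ubiquitin receptor, had 58.4 at 35 bp inside the gene (rank 3510), with 40.0 in replicate 1 (rank 3093) and 14.4 in replicate 3 (rank 18258). The replicates thus differed widely at Prosalpha2 and Rpn13 and less at Rpn10. Prosalpha5 followed with 49.6 at 57 bp upstream of its TSS (rank 4736) and Rpt3 with 48.9 at 185 bp upstream (rank 4881), with no match in either replicate for this Rpt3 peak. A weaker pooled peak at Rpt3, 28 bp inside the gene (42.5, rank 6558), had 29.6 in replicate 1 (rank 5494) and 16.8 in replicate 3 (rank 11506). The weak peak at the TSS of Rpt6 had 46.3 (rank 5434), with 34.4 in replicate 1 (rank 4107) and 13.7 in replicate 3 (rank 20588). The 6 constitutive genes with no pooled peak at all in their window were Prosalpha7, Prosbeta5, Prosbeta7, Rpn1, Rpt2 and Rpt4.

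Of the 16 paralogues, 5 had a pooled peak in their window (31.2%, interval 11 to 58.7). This compares with 66.5% of the genes no longer than 4500 bp and 73.3% of all protein-coding genes. The 5 paralogues were Prosbeta5R2 (strongest signal 34.1, rank 11154), Prosbeta2R2 (33.4, rank 11757), Prosbeta5R1 (31.6, rank 13589), Rpt3R (31.1, rank 14154) and Rpt6R (28.0, rank 18478). All 5 stood in the weaker part of the list, with −log10 q values of at most 0.171. The single one near its own TSS was at Prosbeta2R2, 457 bp inside the gene, at rank 20701 of 21025 (signal 26.7). The paralogues Prosalpha1R, Prosalpha3T, Prosalpha4T1, Prosalpha4T2, Prosalpha6T, Prosbeta2R1, Prosbeta4R1, Prosbeta4R2, Rpn12R, Rpn13R and Rpt4R had none. Whether these genes are active in the embryo was not measured here.

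For 1 of the paralogues the reads cannot be assigned. Prosalpha1R and Prosalpha1 lie side by side on 2R in a repeat of 3112 bp that is identical in both copies (7826739 to 7829850 and 7829849 to 7832960). The spans of both genes agree over all 1359 aligned bp, and no summit of the IDR, pooled or replicate lists lies in either copy. How reads that map to several places were treated is not given in the sources used here, so the lack of peaks there is no measurement of binding at these genes. The other 15 paralogues differ from their constitutive genes, with identities from 63.4% to 77.1% over the aligned span and no identical run longer than 26 bp. Without Prosalpha1R, 0 of the remaining paralogues had a peak past IDR, the same count as with it. Without Prosalpha1, whose peak past IDR lies outside the repeat, 3 of 13 core genes had a peak past IDR in their window (23.1%, interval 5.04 to 53.8), and 8 of 13 had a pooled peak within 500 bp of their TSS (61.5%, interval 31.6 to 86.1).

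**Figure D3:**
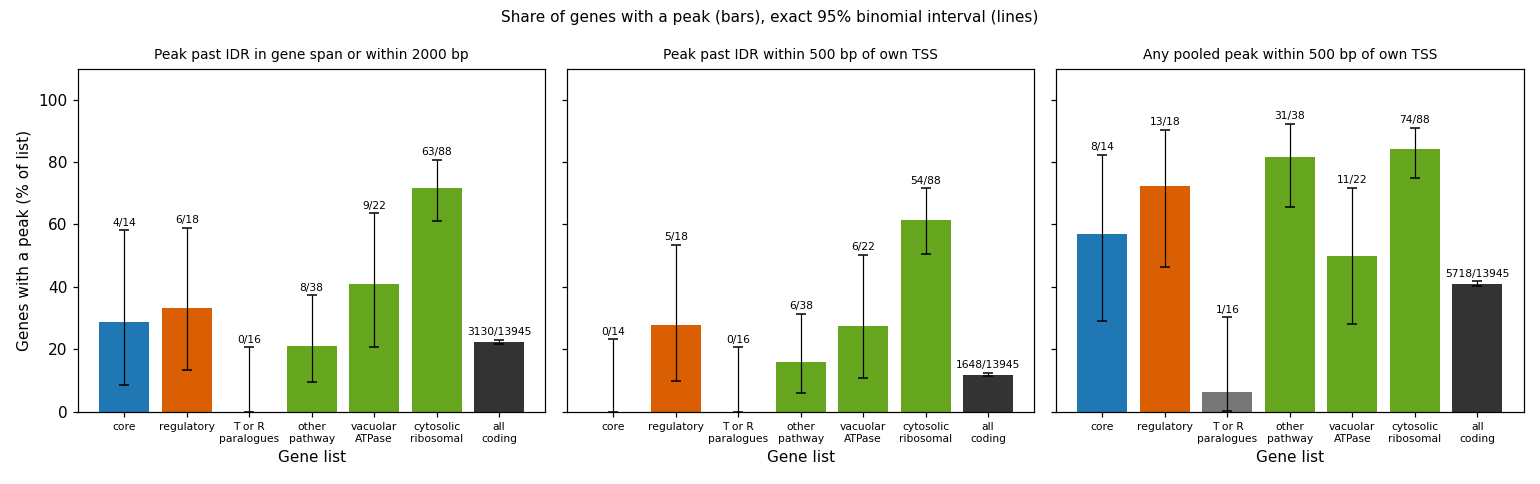
Share of genes with a peak (vertical axis, percent of the list) for the core, regulatory and T or R paralogue genes, other genes of the ubiquitin pathway, vacuolar ATPase genes, cytosolic ribosomal protein genes and all protein-coding genes. The panels show peaks past IDR in the gene window, peaks past IDR within 500 bp of an own TSS and pooled peaks within 500 bp of an own TSS, with bars for the shares, lines for exact 95% binomial intervals and the counts above. In the middle panel the core is at 0 of 14, the regulatory particle at 5 of 18 and the paralogues at 0 of 16.

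Sequence at the 12 summits was searched on both strands in windows of 50 bp on each side. TATCGATA was in 2 of them, at Rpn3 and Rpt5 (16.7%, interval 2.09 to 48.4), against 1.94% of all 2322 windows and 0.409% of windows centred 400 bp to each side. The share rests on 2 peaks, and it was 8.33%, 1 peak, in windows of 30 bp on each side and 10% among the strongest 2322 peaks of replicate 3 alone. ACGTG was in 0 of 12 windows, which allows a share of up to 26.5%. It was in 6.68% of all windows and in 9.56% of those 400 bp to each side, so it was not more frequent at the summits of the whole list either. None of the 12 held the longer forms TACGTG or CACGTG, the E-box CAGCTG, the M1BP promoter core GGTCACAC, or TGACNNNGC, the core of the antioxidant response element that Cnc binds with Maf proteins. TATAAA was in 4 (33.3%, interval 9.92 to 65.1), against 22.7% of all windows and 9.69% of those 400 bp to each side. GAGAG was in 2 (16.7%), against 9.35% and 16.3%. The GC content of the 12 windows had a median of 30.7%, against 32.7% over all peaks.

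In the promoters, taken as 250 bp before to 50 bp after the outermost TSS, TATCGATA was more frequent than over all genes. It was in 12 of the 48 promoters (25.0%, interval 13.6 to 39.6), against 9.36% of the promoters of all protein-coding genes. All 12 were constitutive, 6 of the 14 core promoters (42.9%, interval 17.7 to 71.1) and 6 of the 18 regulatory ones (33.3%, interval 13.3 to 59.0), and none of the 16 paralogue promoters held it, which allows a share of up to 20.6%. Of the cytosolic ribosomal protein promoters 31.8% held it. The 12 genes were Prosalpha3, Prosalpha5, Prosalpha6, Prosbeta1, Prosbeta2, Prosbeta6, Rpn3, Rpn7, Rpn9, Rpn12, Rpn13 and Rpt5. Among the stretches printed, the copy of Prosbeta2 starts 10 bp and that of Prosalpha6 16 bp before the TSS, whereas those of Rpn3 and Rpn12 start 197 and 216 bp before it.

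A promoter with TATCGATA did not always hold a peak. Of the 12 genes 2 had a peak past IDR within 500 bp of their TSS, Rpn3 and Rpt5 (16.7%), and 10 had a pooled peak there (83.3%). Of the 20 constitutive genes without TATCGATA, 3 had a peak past IDR (15.0%) and 11 a pooled peak (55.0%). Over all protein-coding genes the shares were 17.8% and 60.8% with TATCGATA, and 11.2% and 39.0% without it. ACGTG was in 9 of the 48 promoters (18.8%, interval 8.95 to 32.6), against 23.2% of all protein-coding promoters. TGACNNNGC was in 6 (12.5%, interval 4.73 to 25.2), against 8.63%, and GGTCACAC in 5 (10.4%, interval 3.47 to 22.7), against 7.70%. Both intervals hold the share over all genes.

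Most constitutive genes share their upstream region with another gene. A protein-coding gene on the other strand started within 1000 bp upstream of 19 of the 32 constitutive genes (59.4%, interval 40.6 to 76.3) and of 3 of the 16 paralogues (18.8%, interval 4.05 to 45.6), against 35.2% of all protein-coding genes. The core had 10 of 14 (71.4%, interval 41.9 to 91.6) and the regulatory particle 9 of 18 (50%, interval 26 to 74.0). Over all protein-coding genes a peak past IDR near the own TSS was found for 21.9% of those with such a neighbour and 6.32% of those without one. Among the constitutive proteasome genes it was found for 3 of 19 with a neighbour (15.8%) and 2 of 13 without one (15.4%). The part of the neighbours in the peaks at proteasome promoters was not tested.

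**Figure D4:**
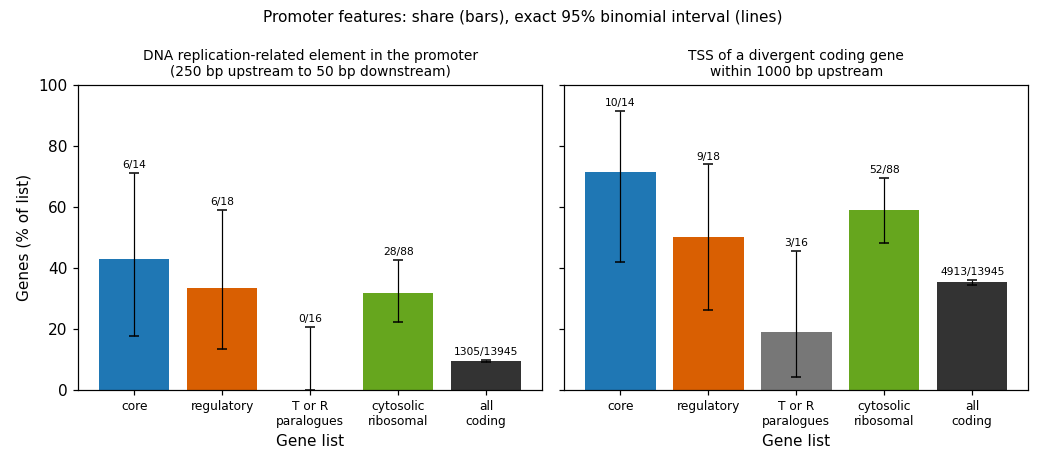
Share of genes (vertical axis, percent of the list, with exact 95% binomial intervals as lines and counts above the bars) whose promoter holds TATCGATA, left, and that have the TSS of a divergent protein-coding gene within 1000 bp upstream, right. The core and regulatory genes stand at 42.9% and 33.3% on the left, the T or R paralogues at 0 of 16 and all protein-coding genes at 9.36%.

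Other genes of the ubiquitin and proteasome pathway had peaks about as often as the subunits in the gene window. Of 40 symbols listed, 38 matched a gene, and 8 of the 38 had a peak past IDR (21.1%, interval 9.55 to 37.3), against 22.4% of all protein-coding genes. Within 500 bp of the own TSS it was 6 of 38 (15.8%, interval 6.02 to 31.3), against 11.8%. The highest signal was at alien, which encodes a subunit of the COP9 signalosome, a complex related to the lid (2L, 140 bp from its TSS, signal 225.0, rank 227), with 123 in replicate 1 and 102 in replicate 3, and the TSS of CG18661 was closer, at 86 bp. Keap1, the inhibitor of Cnc, followed with 188.5 for the strongest of its 3 peaks (3R), 817 bp from its TSS and 518 bp from that of kuk, and Hsp83, the Hsp90 chaperone gene, with 150.6 (3L). Peaks were also found at the ubiquitin genes Ubi-p63E (3L, 126.6), 2919 bp from its TSS and 25 bp from that of Ccz1, and RpS27A (2L, 120.9), 79 bp from its TSS. Others lay at the F-box gene slmb (3R, 92.2), 85 bp from its TSS and 3 bp from that of CG5793, and at cnc (3R, 87.8), whose factor is known to activate proteasome genes. Pomp, which encodes the assembly chaperone of the core particle, had a peak 203 bp from its TSS (2L, 98.3, rank 1429), with 50.4 in replicate 3 (rank 851) and no matching summit in replicate 1.

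Peaks at the own promoter were less frequent at the proteasome than at the ribosome, another housekeeping complex of many subunits. Such a peak past IDR was found for 5 of the 32 constitutive proteasome genes (15.6%, interval 5.28 to 32.8), against 54 of the 88 cytosolic ribosomal protein genes (61.4%, interval 50.4 to 71.6). The intervals of both lists do not overlap. Of all protein-coding genes 11.8% had such a peak, and of those no longer than 4500 bp 10.2%. The interval of the constitutive proteasome genes holds both of these shares, and that of the ribosomal protein genes lies above both. The median gene span was 1390 bp for the constitutive proteasome genes and 1325 bp for the ribosomal protein genes. Of the 22 vacuolar ATPase genes, 6 had one (27.3%, interval 10.7 to 50.2), whose interval overlaps that of the constitutive proteasome genes. The ribosomal and ATPase lists were taken by symbol with any paralogues kept, unlike the constitutive proteasome list. Over all 48 proteasome genes, paralogues included, the share was 10.4% (interval 3.47 to 22.7). That interval overlaps the interval of the ATPase genes and not that of the ribosomal protein genes. These are shares over genes of 1 group of samples, and the difference was not tested.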

How the data were processed

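ChIP-seq peak lists of 1 group with 2 biological replicates were used. Per the file lists deposited with the samples, relaxed narrowPeak lists were called for each replicate and on the pooled replicates against 1 shared control alignment, and a list past an IDR threshold was derived from them. Not given in the sources used here: aligner, caller, versions, IDR threshold and the treatment of reads with several positions. Peak signal is a score from the authors' caller, used only to rank and describe peaks within its list, and the deposited −log10 q values were copied. Neither holds read counts, so depth per sample is unknown. The 4 dm6 lists were used, and those of dm3 were not.

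Genes, TSSs and biotypes came from the Ensembl BDGP6.54 annotation and sequence from RefSeq Release 6. Summits were given to genes as described, replicate summits were matched within 100 bp, and shares have exact (Clopper-Pearson) 95% intervals. Sequences were searched on both strands, and TACGTG and CACGTG overlap ACGTG by construction. The assignment and the search were checked on simulated summits and windows. Named are all proteasome genes with a peak past IDR, those without by name, the 5 of these with the strongest pooled peaks, each paralogue with a pooled peak, and up to 8 other pathway genes with a peak; the further peaks given at single promoters, and the comparison of lid and base, were chosen after their values were seen. Members and lists were chosen with earlier results of these data known. Other windows, gene assignments, lists and single replicates were tried as alternatives. Python 3.11.15, numpy 2.4.6, pandas 2.3.3, scipy 1.17.1, Biopython 1.88 and matplotlib 3.10.9 were used.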

Additional observations from a re-analysis of the deposited data

How the results depend on the processing

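Over 7 results and 52 alternatives, 31 values stayed within their limits and 21 moved, mostly the counts of genes with a peak, since the window and the list set these by construction. The count of all proteasome genes (10) was 2 by gene span alone, 5 with 500 bp, 2 by the nearest TSS, 4 in the strongest 1161 peaks and 31 in the pooled list. The core count (4) was 0, 0, 0, 1 and 11 under these settings, and 2 to 4 without each replicate. The regulatory count (6) was 2 by span alone, 2 by the nearest TSS, 3 in the 1161 strongest peaks and 15 in the pooled list, and 5 to 6 without each replicate. For the paralogues (0) it was 1 with 5000 bp and 5 in the pooled list. The promoter count (5) was 2 in the 1161 strongest peaks and 4 to 5 without each replicate. The share of peaks with TATCGATA (16.7%) was 50% by the nearest TSS, over 2 peaks, 25.0% in windows of 100 bp on each side, 8.33% in those of 30 bp, and 10% (without replicate 1) to 16.7% without each replicate. The median rank of the strongest peak per gene was 1227.5 in the list past IDR, the same value as over all 12 peaks. It was 967 to 1151 in the single replicates, each over its own genes with a peak. In the longer pooled list it was 5348, over the 31 genes with a pooled peak, so it is not a like measure. Leaving out Prosalpha1R, chosen after seeing the data, changed no count, and leaving out Prosalpha1 as well, also chosen then, gave 9 proteasome genes, 3 core genes and 5 promoters. No paired analysis was possible because there is 1 group. The precision is limited by 8 to 18 genes per list, 2 replicates that share a control, and an unknown depth.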
